A study of Mus musculus with 8 samples.

Results

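Across the NANOG and BRG1 peaks of both arms, 1427 of 93352 merged regions carried a NANOG peak in both arms and a BRG1 peak in NanogWT, but no BRG1 peak in NanogBiD. They made up 3.21% of the 44464 regions with NANOG in both arms. The regions came from CUT&Tag, in which an antibody brings a transposase to its target so that the DNA beside it is tagged and sequenced. Mouse embryonic fibroblasts at day 5 of reprogramming were profiled in 2 arms, which both received Oct4. The NanogWT arm (Nanog+Oct4) also received wild-type Nanog, and the NanogBiD arm (labelled NanogN70+Oct4) received Nanog fused to the BRG1 interacting domain of SS18. That N70 and BiD name the same fusion was taken from the text of the study. Libraries were made with antibodies to FLAG (the tag carried by NANOG), BRG1 (Smarca4), H3K27ac and H3K4me1, which gave 8 groups with 1 library each.

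The members were found by merging peaks of the FLAG and BRG1 lists that overlapped or touched. A region was kept when it held a FLAG peak of each arm and a NanogWT BRG1 peak, and no NanogBiD BRG1 peak. The members were thus chosen by the presence of FLAG and BRG1 peaks, which is not a result. H3K27ac, H3K4me1, the height of the FLAG summits, position and sequence were not used. The other regions with NANOG in both arms served for comparison: 22084 had BRG1 in both arms, 14212 had BRG1 in NanogBiD only and 6741 had no BRG1. The authors merged replicates before they called peaks, in a number not given for these libraries (the study states only a general minimum for its experiments), and no control library was named. No test between the arms was therefore possible, and intervals given below are Wilson 95% intervals that cover counting error over regions only. In a bulk library, a lower summit can come from fewer cells with the mark or from less of it per cell, and these cannot be told apart.

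NANOG is a homeodomain transcription factor of the pluripotency network. BRG1 is the ATPase of the BAF complex, which uses ATP to move nucleosomes and open DNA to other factors, and SS18 is a BAF subunit that binds BRG1. H3K27ac marks active promoters and enhancers, and H3K4me1 marks enhancers and the flanks of promoters. AP-1 factors, such as FOS and JUN, bind many enhancers of fibroblasts together with TEAD and RUNX factors, while the OCT octamer is the site of OCT4 and related POU factors.

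To show the DNA at NANOG summits of the NanogWT arm, the bases within 50 bp of the FLAG summit are printed for members away from promoters (build mm10, plus strand, read from RefSeq's GRCm38.p6 assembly). Over all members, the NanogBiD FLAG summit lay 93 bp from the NanogWT one at the median (quartiles 36 and 202). At most members it was thus outside such a window. Capitals mark matches to the motifs AP-1 (TGACTCA), TEAD (GGAATG), RUNX (TGTGGTT), OCT octamer (ATGCAAAT) and SOX (ACAAAG or ACAATG), each searched on both strands. The first set holds 4 members that were among the 10 with the highest NanogWT BRG1 score, and both windows on chromosome 14 hold none of these letters.
chr8:91403678-91403778: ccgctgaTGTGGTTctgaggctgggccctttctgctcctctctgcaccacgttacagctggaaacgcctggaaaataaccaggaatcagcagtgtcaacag
chr14:13001548-13001648: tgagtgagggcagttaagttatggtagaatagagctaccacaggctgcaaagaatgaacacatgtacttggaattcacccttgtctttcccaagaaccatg
chr14:26808806-26808906: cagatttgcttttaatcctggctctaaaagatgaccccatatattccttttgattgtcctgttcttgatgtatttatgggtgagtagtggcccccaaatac
chr1:121621117-121621217: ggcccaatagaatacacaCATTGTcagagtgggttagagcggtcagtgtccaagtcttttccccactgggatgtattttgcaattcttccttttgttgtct

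The next set holds 3 of the 4 members with an AP-1 match and the highest NanogWT BRG1 scores, and then the 2 such members with an OCT octamer. They were chosen after their values were seen, to show the sites that are counted below.
chr17:48825372-48825472: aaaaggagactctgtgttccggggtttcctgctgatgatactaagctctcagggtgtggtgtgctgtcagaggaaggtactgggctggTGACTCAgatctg
chr11:52081371-52081471: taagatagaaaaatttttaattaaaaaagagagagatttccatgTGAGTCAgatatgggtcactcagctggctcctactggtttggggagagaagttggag
chr17:74796454-74796554: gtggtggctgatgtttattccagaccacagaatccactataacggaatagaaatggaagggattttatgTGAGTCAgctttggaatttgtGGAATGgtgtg
chr9:52768358-52768458: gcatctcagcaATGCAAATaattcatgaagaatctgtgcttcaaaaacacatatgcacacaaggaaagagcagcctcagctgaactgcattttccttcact
chr7:136159405-136159505: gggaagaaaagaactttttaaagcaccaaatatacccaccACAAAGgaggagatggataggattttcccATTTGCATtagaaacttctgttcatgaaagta

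The lists differed in size, since BRG1 had 30859 peaks in NanogWT and 53748 in NanogBiD, and FLAG had 58940 and 74782. H3K27ac had 35452 and 42598 peaks, whereas H3K4me1 had 72242 in NanogWT and 57156 in NanogBiD. The number of sequenced tags is unknown, so part of these differences can be depth. Of 8 fibroblast markers, 7 (all but Prrx1) had promoter H3K27ac in each arm. Of 6 markers each, macrophage genes had it at 2 in NanogWT and 3 in NanogBiD, endothelial genes at 1 and 3, and pluripotency genes at 0 and 1 (Tdgf1), so that Nanog, Zfp42, Esrrb, Dppa5a and Utf1 had none in either arm. The part of other cell types in the results below was not tested.

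The members were weak BRG1 regions in NanogWT, as a description of what chose them. Their NanogWT BRG1 summits ranged from 6 to 45 tags with a median of 10, against a median of 15 at regions with BRG1 in both arms. Of the 23511 regions with NANOG in both arms and BRG1 in NanogWT, 6.07% (5.77 to 6.38) had no NanogBiD BRG1 peak. That share was 16.7% at NanogWT summits of 6 to 8 tags, 13.3% at 9 to 10, 8.72% at 11 to 12, 4.68% at 13 to 15 and 2.01% at 16 to 20. Above these, at 21 tags or more, 19 of 4862 regions had no NanogBiD BRG1 peak (0.391%, 0.2503 to 0.6096). In the other direction, BRG1 was in NanogBiD only at 39.2% of the 36296 regions with NANOG in both arms and BRG1 in NanogBiD.

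**Figure D1:**
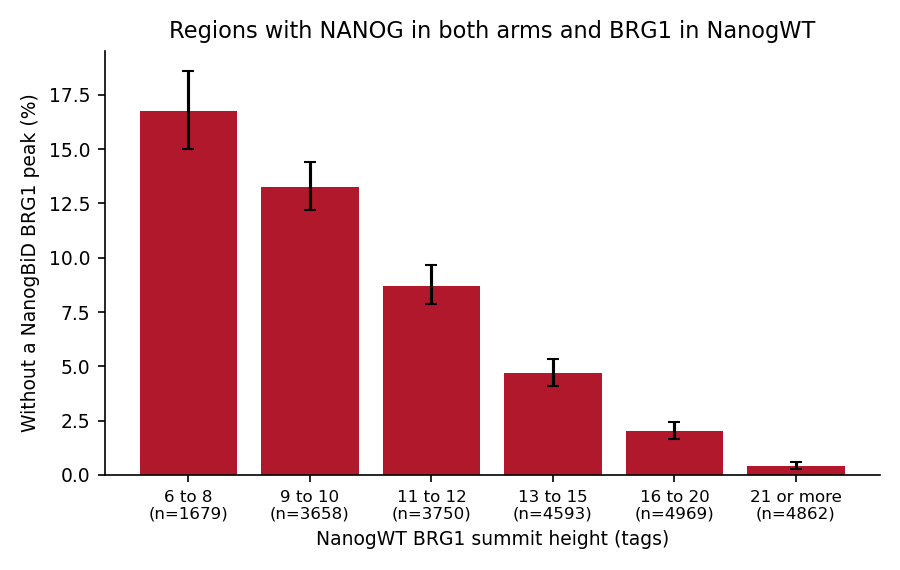
Share of regions with NANOG in both arms and BRG1 in NanogWT that had no NanogBiD BRG1 peak (y axis, percent), by the NanogWT BRG1 summit height in tags (x axis), with Wilson 95% intervals as bars. The share was 16.7% at 6 to 8 tags and 0.391% at 21 tags or more.

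Many members lay close to the threshold of the peak caller. The score is the peak caller's measure of significance, and its minimum was 50 in every list. The 5 members with the lowest NanogWT BRG1 scores had 50.13 to 50.25, and 421 of the 1427 members had scores under 60. Just outside the rule, the 5 regions with BRG1 in both arms and the lowest NanogBiD BRG1 scores had 50.02 to 50.04, and 610 of those 22084 regions were under 60. When a score of at least 100 was required in every list, 661 regions met the rule and overlapped 69 of the 1427 members, so membership depends on the threshold. The absence of a NanogBiD peak is thus the absence of a call and not of BRG1.

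H3K27ac was more often present in NanogWT only than in NanogBiD only at the members, by a margin that depended on how peaks were compared. It had a peak in NanogWT only at 287 members, or 20.1% (18.1 to 22.3), where 4.68% of all regions with NANOG in both arms did. It had a peak in NanogBiD only at 135 members, or 9.46% (8.05 to 11.1), against 16.2% of all such regions. With windows of 100 bp either side of summits in place of peaks, the shares were 17.6% (15.9 to 19.4) and 16.7% (15.02 to 18.5), so that the intervals overlapped, and with summits of at least 15 tags they were 10.5% and 4.34%. A further 684 members had H3K27ac in both arms, and 321 in neither. In all, 971 members (68.0%) carried H3K27ac in NanogWT and 819 (57.4%) in NanogBiD, whereas over all regions with NANOG in both arms the share was higher in NanogBiD (56.0% in NanogWT and 67.5% in NanogBiD).

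H3K4me1 followed the same order, over a list that was smaller in NanogBiD. It had a peak in NanogWT only at 319 members, or 22.4% (20.3 to 24.6), where 13.4% of all regions with NANOG in both arms did. It had a peak in NanogBiD only at 77 members, or 5.40% (4.34 to 6.69), against 9.41%. Members with H3K4me1 numbered 1124 (78.8%) in NanogWT and 882 (61.8%) in NanogBiD, against 68.2% and 64.3% of all regions with NANOG in both arms. The gap narrowed under other settings, to 12.7% and 8.91% with each list limited to its 20000 top-scoring peaks (9.79 to 16.4 and 6.47 to 12.1, which overlap) and to 19.4% and 12.2% with summit windows. Both marks were present at 804 members (56.3%, of which 541 distal) in NanogWT and at 575 (40.3%, 356 distal) in NanogBiD, against 47.1% and 52.2% of all regions with NANOG in both arms. The marks did not go together at every member, since 450 (31.5%) had both marks in both arms, 143 (10.02%) had H3K27ac in NanogWT only and H3K4me1 in both, and 87 (6.10%) had both marks in NanogWT only.

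**Figure D2:**
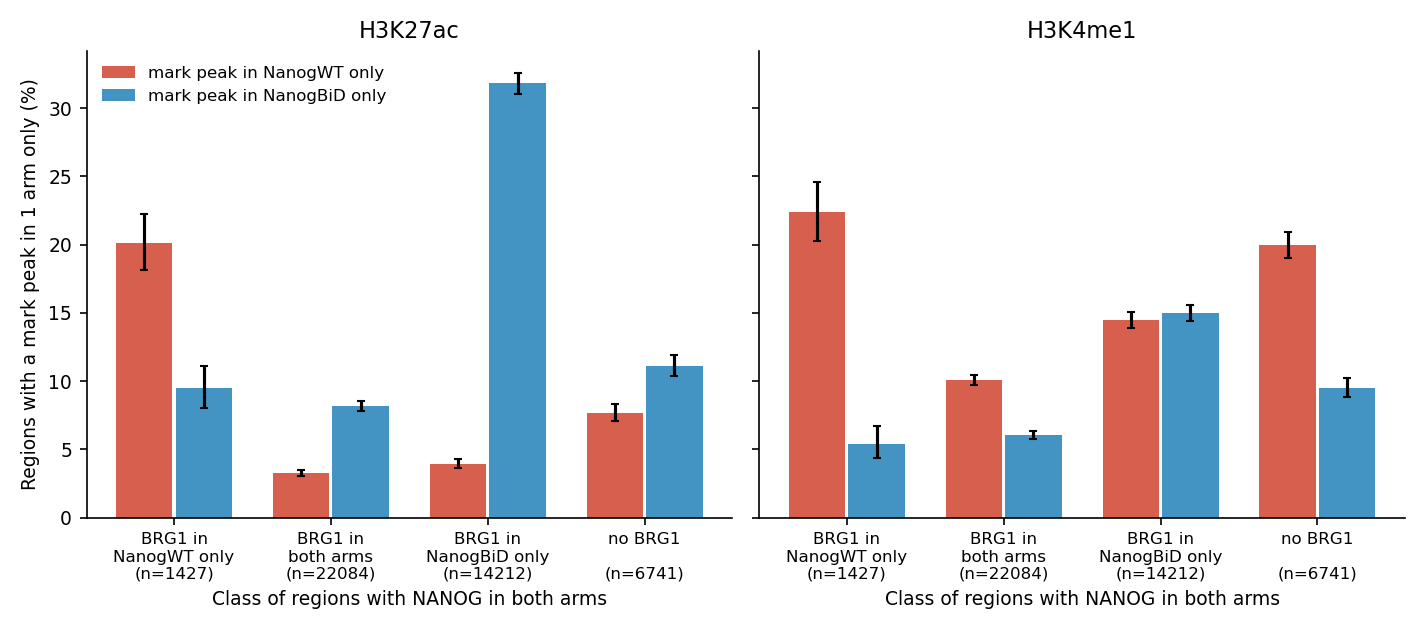
Share of regions with an H3K27ac peak (left) or an H3K4me1 peak (right) in NanogWT only (red) or NanogBiD only (blue), in percent, for the 4 classes of regions with NANOG in both arms, with Wilson 95% intervals as bars. At the members (BRG1 in NanogWT only), H3K27ac was in NanogWT only at 20.1% and in NanogBiD only at 9.46%, and red stood above blue for H3K27ac in no other class.

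The order of the shares was the reverse for H3K27ac in the other classes. Regions with BRG1 in both arms had H3K27ac in NanogWT only at 3.25% and in NanogBiD only at 8.18%, and regions with BRG1 in NanogBiD only at 3.93% and 31.8%. For H3K4me1, regions with BRG1 in both arms had 10.1% and 6.05%, and regions without BRG1 had 19.98% and 9.48%, so that the order of the members was not theirs alone for this mark. Among regions that carried H3K27ac in NanogWT, 29.6% of members (26.8 to 32.5) and 8.36% of all regions with NANOG in both arms had no NanogBiD peak, and for H3K4me1 the shares were 28.4% (25.8 to 31.1) and 19.6%. Regions with NANOG and no BRG1 had higher shares, at 45.3% (42.4 to 48.2) for H3K27ac and 43.6% (41.9 to 45.4) for H3K4me1. For H3K4me1, regions with BRG1 in NanogBiD only were level with the members, at 28.1% (27.1 to 29.1).

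Weak mark peaks more often had no called peak in the other arm, so members were also compared with regions of like mark height. At NanogWT H3K27ac summits of 17 to 24 tags, 49 of 272 members (18.01%) had no NanogBiD H3K27ac peak, against 1.92% of regions with BRG1 in both arms. At 7 to 12 tags the shares were 48.3% and 13.1%, at 13 to 16 tags 29.1% and 6.78%, and at 25 tags or more 7 of 99 members (7.07%) and 0.693%. Read the other way, NanogBiD H3K27ac summits could lack a NanogWT peak. At 7 to 12 tags they did at 29.2% of members (24.2 to 34.7) and 34.7% of regions with BRG1 in both arms (32.6 to 36.8). At 13 to 16 tags the shares were 14.6% (10.8 to 19.4) and 19.6% (18.3 to 20.9), and at 17 to 24 tags 5.83% and 5.68%. At 25 tags or more they were 4.17% (1.43 to 11.5, 3 of 72 members) and 0.781% (0.613 to 0.994). Members were thus lower in the first pair of ranges only, with intervals that overlapped in each. They were higher at 25 tags or more, with intervals apart. For H3K4me1 summits of 17 to 24 tags in NanogWT, 21.5% of members and 8.41% of regions with BRG1 in both arms had no NanogBiD peak. The share was higher for members than for regions with BRG1 in both arms in each of the 4 height ranges and for both marks, although the intervals overlapped for H3K4me1 in the lowest and the highest range. Regions without BRG1 were at or above the members here, with intervals that overlapped in each range for H3K27ac. Of these, 25.4% (19.7 to 32.1) had no NanogBiD H3K27ac peak at NanogWT summits of 17 to 24 tags, and the arms were nearly even, with 25.8% (19.6 to 33.1) of NanogBiD summits at that height without a NanogWT peak. At the members the same comparison gave 18.01% and 5.83%. Regions with BRG1 in NanogBiD only lay on both sides of the members for H3K4me1, with 40.4% against 39.4% at 7 to 12 tags, 28.8% against 37.4% at 13 to 16 tags, 17.001% against 21.5% at 17 to 24 tags and 11.6% against 8.93% at 25 tags or more. For H3K27ac they were lower than the members at 7 to 12 tags (21.7%), 13 to 16 tags (11.4%) and 17 to 24 tags (7.32%), and at 11.2% against 7.07% at 25 tags or more, where the intervals overlapped (6.67 to 18.2 and 3.47 to 13.9).

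The 10 members with the highest NanogWT BRG1 scores did not behave alike. Of these, 4 had H3K27ac in NanogWT only, and all 4 were distal. The first lay outside protein-coding genes at chr1:121620107-121621863, 52.1 kb from the start of Ddx18. There FLAG was 25 tags in NanogWT and 10 in NanogBiD, BRG1 was 15 in NanogWT, H3K27ac was 21 in NanogWT, and H3K4me1 was 17 and 12. An intron of Dnah12, an axonemal dynein, held the second at chr14:26807730-26809422, with FLAG at 24 and 12 tags, BRG1 at 15, H3K27ac at 19 in NanogWT only, and H3K4me1 at 18 and 14.

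The other two lay outside protein-coding genes. At chr14:13000945-13002700, FLAG was 13 and 10 tags, BRG1 15, H3K27ac 15 in NanogWT only, and H3K4me1 23 and 14. At chr15:74179337-74180586, FLAG was 15 and 10 tags, BRG1 12, H3K27ac 13 in NanogWT only, and H3K4me1 19 and 9. All 4 regions had lower FLAG and lower H3K4me1 in NanogBiD, and the nearest NanogBiD BRG1 peak was 13.1 to 38.6 kb away. For comparison, FLAG was lower at 73.9% of all members with H3K27ac in NanogWT only. Among regions with H3K4me1 in both arms, its summit was lower at 77.4% of members and 65.9% of all regions with NANOG in both arms.

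Another distal member kept both marks at a lower height. It lay at chr8:91402737-91404519 in an intron of Fto, an RNA demethylase, with FLAG at 25 and 14 tags, BRG1 at 19, H3K27ac at 27 and 17, and H3K4me1 at 24 and 14. A further one, at chr19:12008431-12013100 outside protein-coding genes, was the broadest of the 10 at 4670 bp and differed little between arms in FLAG (35 and 33 tags) and H3K27ac (39 and 37), while H3K4me1 was 16 in NanogWT and not called in NanogBiD.

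The remaining 4 overlapped start sites, and none of them had H3K27ac in NanogWT only. At Apobec3, a cytidine deaminase (chr15:79891768-79892837), FLAG was 12 tags in both arms, BRG1 17, H3K27ac 21 and 24, and H3K4me1 12 and 13. At B4galt4, a galactosyltransferase (chr16:38741841-38743212), FLAG was 16 and 11, BRG1 12, H3K27ac 16 and 18, and H3K4me1 18 and 19. The start of Sh3kbp1, a signalling adaptor (chrX:159626785-159628485), had FLAG at 10 in both arms, BRG1 at 13, H3K27ac at 12 and 15, and no H3K4me1. Tap2, a peptide transporter of antigen processing (chr17:34202596-34203635), had FLAG at 18 and 21 and BRG1 at 25, without either mark.

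That split between distal and promoter regions held over the members. Away from promoters (over 2 kb from any start site, 1009 members), H3K27ac was in NanogWT only at 22.8% (20.3 to 25.5) and in NanogBiD only at 9.22% (7.58 to 11.2). At promoters (418 members) the shares were 13.6% (10.7 to 17.3) and 10.05% (7.52 to 13.3), with intervals that overlapped. For comparison, all distal regions with NANOG in both arms had 5.80% and 20.2%, and all promoters 2.35% and 7.95%. H3K4me1 was in NanogWT only at 23.7% of distal and 19.1% of promoter members, where all such regions had 15.6% and 8.70%.

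At the members with the highest H3K27ac scores among those marked in NanogWT only, NANOG was also lower in NanogBiD. Besides the Ddx18 and Dnah12 regions, these were regions with summits in introns of Dnajc13, an endosomal cochaperone, of Erich3, and of Babam2, a subunit of a BRCA1-containing complex. The Dnajc13 and Erich3 regions overlapped an annotated start site and are thus promoter members. FLAG was 19 and 9 tags at Dnajc13 (chr9:104246605-104248092), 22 and 12 at Erich3 (chr3:154663721-154666152) and 16 and 12 at Babam2 (chr5:31792262-31794476). H3K27ac was 17, 18 and 21 tags there in NanogWT, and H3K4me1 was called in NanogWT only at Dnajc13 and Erich3.

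Where H3K27ac was in NanogBiD only, the regions with the highest scores lay at or near start sites and FLAG differed by at most 3 tags. They were at Hnrnpm, a splicing factor (FLAG 14 and 15, H3K27ac 35 in NanogBiD), Elmo1 (10 and 10, H3K27ac 13), the coagulation factor gene F8 (9 and 10, H3K27ac 21), Sptlc1, a subunit of the first enzyme of sphingolipid synthesis (8 and 11, H3K27ac 19), and Mc4r, a melanocortin receptor (11 and 10, H3K27ac 14). The regions at Hnrnpm, Elmo1 and Mc4r had a NanogBiD BRG1 peak 0.209, 0.227 and 0.595 kb from their edge. Start sites were not typical of such members. Of the 135 with H3K27ac in NanogBiD only, 93 were distal and 42 were at promoters.

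NANOG itself was lower in NanogBiD at most members. The median FLAG summit was 14 tags in NanogWT and 12 in NanogBiD, and the median log2 ratio of NanogBiD to NanogWT was -0.18 (quartiles -0.57 and 0.15). It was -0.060 with summit windows, -0.082 with each list limited to its 20000 top-scoring peaks and -0.093 with summits of at least 15 tags. Over all regions with NANOG in both arms that median was 0.15. FLAG heights come from the lists whose peaks chose the members, and are given as a description. FLAG was lower in NanogBiD at 850 members (59.6%, background 34.7%), at least 1.5-fold lower at 357 (25.02%, background 8.46%) and at least 1.5-fold higher at 85 (5.96%, background 21.9%). The median was 0.10 at regions with BRG1 in both arms, 0.38 at regions with BRG1 in NanogBiD only and 0 at regions without BRG1.

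**Figure D3:**
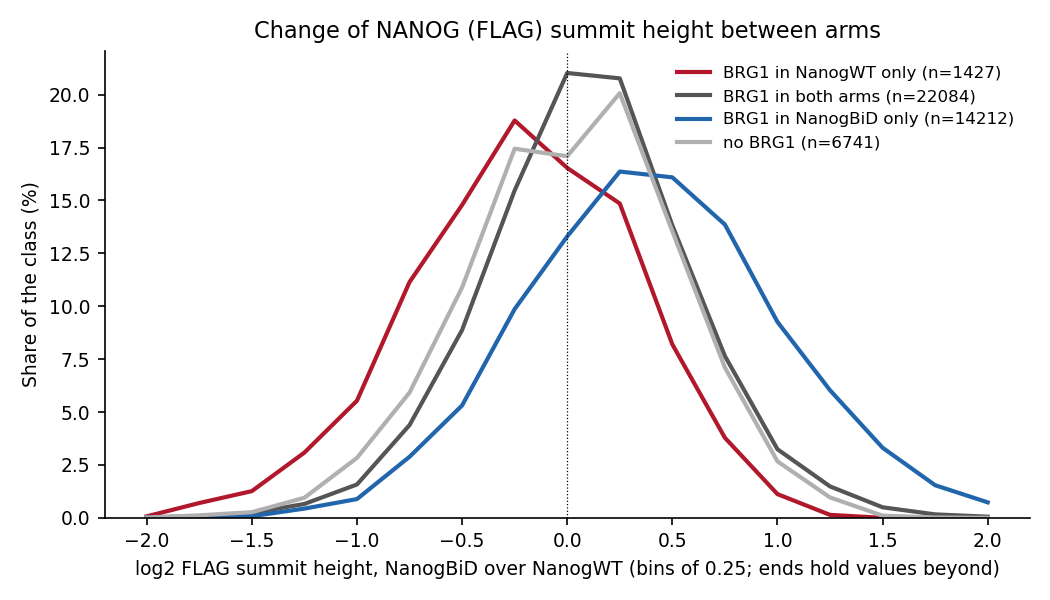
Distribution of the log2 ratio of FLAG summit heights, NanogBiD over NanogWT (x axis, bins of 0.25, dotted line at 0), in percent of each class of regions (y axis). The members (red, median -0.18) lie to the left of the other classes, whose medians were 0.10, 0.38 and 0.

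The FLAG ratio of the members was lowest at the stronger and the distal ones. With regions binned by the geometric mean of both FLAG heights, members had a median log2 ratio of 0 under 10 tags, -0.12 from 10 to 13, -0.33 from 13 to 18 and -0.55 at 18 and above. At the same heights, regions with BRG1 in both arms had 0.15, 0.13, 0.10 and 0.07, and regions without BRG1 had 0.15, 0, -0.08 and -0.03. Distal members had a median of -0.25 and promoter members a median of 0. The height of the NanogWT BRG1 summit bore no relation to the FLAG ratio over the members (Spearman's rho -0.01 over 1427 regions, a description, since regions share libraries).

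The members with the lowest FLAG ratios among those with at least 15 tags in either arm lay in introns. FLAG was 37 tags in NanogWT and 10 in NanogBiD in Myrfl (chr10:116827849-116828986), 29 and 8 in Atxn10 (chr15:85403000-85404051), and 29 and 8 in Adamts5, an aggrecan-cleaving protease (chr16:85887046-85888532). H3K27ac was 12, 23 and 10 tags there in NanogWT, and 13 tags at Atxn10 in NanogBiD, where the other two had no peak. The highest ratios were at regions with FLAG at 8 and 19 tags in an exon of Srebf1, a regulator of lipid synthesis (chr11:60199572-60200459), 13 and 29 at chr12:86790064-86791232, and 10 and 21 at chr3:9027177-9028135. Only the Srebf1 region carried H3K27ac, at 16 tags in NanogBiD only.

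H3K27ac varied with the FLAG ratio over the members. The share with H3K27ac in NanogWT only was 39.0% (30.9 to 47.9) of the 123 members whose FLAG summit was at least 2-fold lower in NanogBiD, 28.2% of the 234 that were 1.5- to 2-fold lower, 19.9% of 493 that were lower by less, and 19.7% of 127 with equal heights. It was 11.5% of the 365 members with FLAG higher by less than 1.5-fold and 9.41% (4.85 to 17.5) of the 85 that were higher by more. H3K27ac in NanogBiD only ran the other way, from 4.07% to 14.1%. H3K4me1 in NanogWT only kept no such order, with 28.5%, 33.8%, 19.9%, 18.1%, 17.3% and 24.7% over the same bins of FLAG ratio. Across the 684 members with H3K27ac in both arms, the FLAG ratio and the H3K27ac ratio had a Spearman's rho of 0.35, and across the 805 with H3K4me1 in both arms it was 0.17, beside 0.28 and 0.11 at regions with BRG1 in both arms (descriptions over regions that share libraries).

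**Figure D4:**
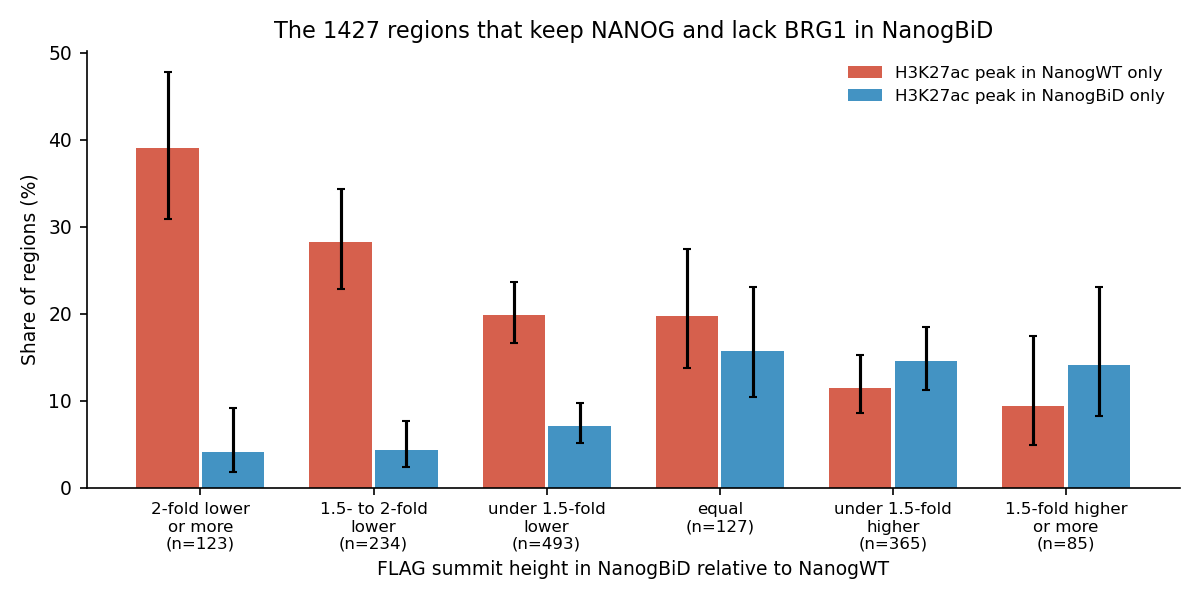
Share of members (y axis, percent) with H3K27ac in NanogWT only (red) or NanogBiD only (blue), by the FLAG summit height in NanogBiD relative to NanogWT (x axis), with Wilson 95% intervals as bars. Red stands at 39.0% where FLAG was at least 2-fold lower and at 9.41% where it was at least 1.5-fold higher.

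The shares were also set beside the other classes at a like FLAG ratio. Where FLAG was at least 1.5-fold lower, H3K27ac was in NanogWT only at 31.9% of members (27.3 to 36.9), 10.9% of regions with BRG1 in both arms, 12.9% of those with BRG1 in NanogBiD only and 16.9% of those without BRG1. Where FLAG was at least 1.5-fold higher, it was in NanogWT only at 9.41% of members (4.85 to 17.5) and at 1.59%, 1.19% and 3.27% of the other classes. These shares depend on how many regions carried the mark to begin with, which in NanogWT was 68.0% of members, 87.2% of regions with BRG1 in both arms, 24.8% of those with BRG1 in NanogBiD only and 16.9% of those without BRG1. Among marked regions the class without BRG1 exceeded the members, as given above. For H3K4me1 at FLAG at least 1.5-fold lower, the share was 31.9% of members (27.3 to 36.9). It was 17.9% of regions with BRG1 in both arms (16.2 to 19.7) and 25.8% of those without BRG1 (22.9 to 28.96). The interval of the last overlapped that of the members. Where FLAG was at least 1.5-fold higher, the H3K4me1 shares were 24.7% (16.8 to 34.8), 9.55% and 13.3% in the same order.

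Where marks were called in both arms, their heights were lower in NanogBiD at distal members. The median log2 ratio of H3K27ac was -0.19 over 419 distal members and 0.09 over 265 promoter members, against 0.10 and 0.08 over all such regions with NANOG in both arms. For H3K4me1 it was -0.34 over 557 distal members and -0.17 over 248 promoter members, against -0.21 and -0.14.

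The members overlapped 2 kb around a start site in 29.3% of cases (26.99 to 31.7), close to the 32.5% of all regions with NANOG in both arms and between the 49.8% of regions with BRG1 in both arms and the 14.7% of those with BRG1 in NanogBiD only. This depended on the threshold, since 44.5% of the regions that met the rule at a score of at least 100, and 56.4% of those at summits of at least 15 tags, were at promoters. Their NanogWT FLAG summits lay in a protein-coding exon at 11.98%, in an intron at 46.0% and outside protein-coding genes at 42.0%, against 11.7%, 41.5% and 46.8% of all regions with NANOG in both arms. Regions were 1113 bp wide at the median, and the NanogWT BRG1 summit was 124 bp from the FLAG summit.

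NanogBiD BRG1 was often called in the neighbourhood. The nearest NanogBiD BRG1 peak was 10.1 kb away at the median, within 1 kb at 91 members (6.38%) and within 10 kb at 49.3% (46.7 to 51.9), against 41.4% (40.2 to 42.6) of regions with NANOG and no BRG1. A region with BRG1 in both arms lay within 20 kb of 651 members (45.6%), one with BRG1 in NanogBiD only within 20 kb of 395 (27.7%), and another member within 20 kb of 66 (4.63%). These neighbour counts were not made for other classes, so they only describe the members.

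AP-1 matches were about as frequent at the NANOG summits of the members as at other regions with NANOG in both arms, and above the frequency nearby. TGACTCA stood within 50 bp of the summit at 86 members, or 6.03% (4.91 to 7.38), and at 0.841% (0.482 to 1.46) in an equally long window lying 1 kb downstream. Over all regions with NANOG in both arms the share at the summit was 6.32%. Within 25 bp of the summit, 3.64% of members had a match. Among distal regions, 7.43% of members (5.97 to 9.22), 10.4% of regions with BRG1 in both arms (9.80 to 10.9) and 7.92% of all regions had a match.

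The motifs of pluripotency factors were less frequent at distal members than at other distal regions with NANOG. The OCT octamer stood at 12 distal members, or 1.19% (0.682 to 2.07), and at 2.38% of all distal regions with NANOG in both arms. In the window 1 kb away from distal members it stood at 0.496% (0.212 to 1.15), an interval that overlapped the one at the summit. SOX letters stood at 12.8% of distal members (10.9 to 14.99), 12.98% in the window 1 kb away and 17.7% of all distal regions. CCATTA, a homeodomain core that NANOG binds, stood at 4.06% (3.01 to 5.47), 5.05% in the window 1 kb away and 6.47% of all distal regions. Against distal regions with BRG1 in both arms, the interval of members overlapped for the octamer (2.26%, 1.997 to 2.55) and for CCATTA (5.32%, 4.92 to 5.75), and did not for SOX (16.4%, 15.8 to 17.1). Neither the SOX nor the NANOG letters were thus more frequent at the summit of distal members than 1 kb away.

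**Figure D5:**
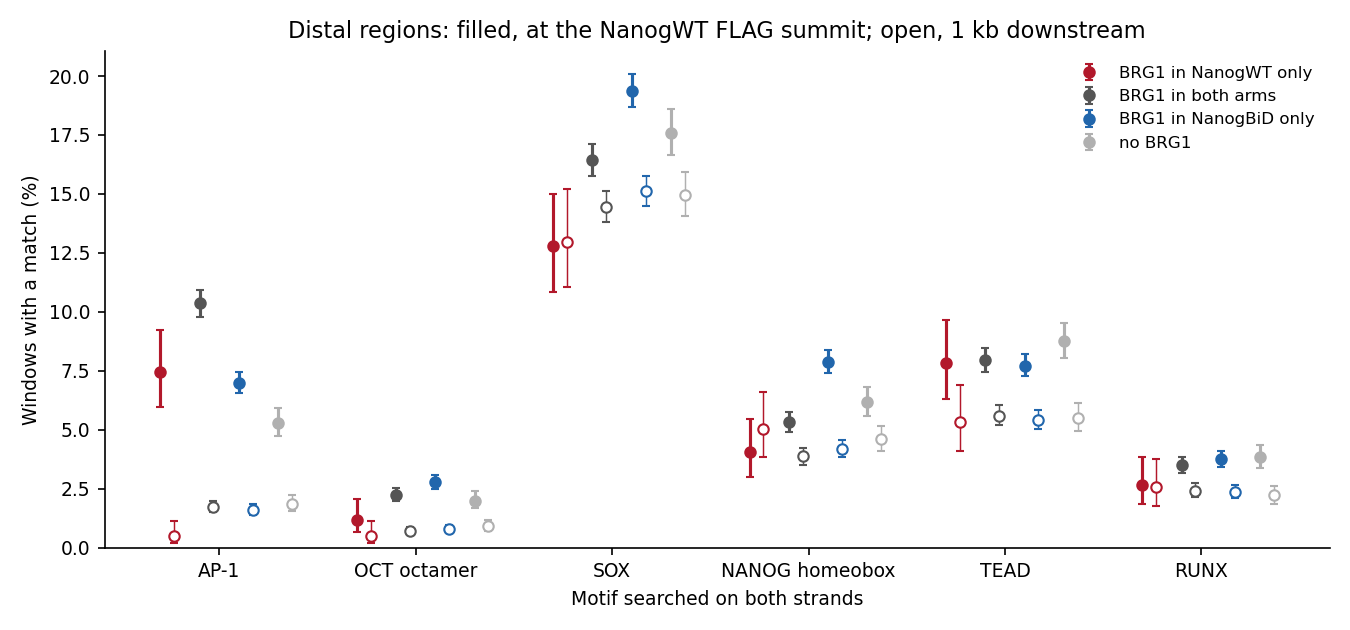
Share of distal regions (y axis, percent) with a motif match within 50 bp of the NanogWT FLAG summit (filled circles) and in an equally long window lying 1 kb downstream (open circles), by motif (x axis) and class of region, with Wilson 95% intervals. AP-1 stood at 7.43% of distal members at the summit, while SOX and NANOG letters were no more frequent there than in the window 1 kb away.

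The base composition differed as well, which bears on motifs rich in A and T. The median GC content of the window was 46.5% at distal members, 44.6% at distal regions with BRG1 in both arms, 41.6% at those with BRG1 in NanogBiD only and 42.6% at all distal regions. Its part in the motif shares was not tested. TEAD letters were found at 6.94% of all members (7.09% of all regions with NANOG in both arms, 5.33% of members 1 kb away), and RUNX at 2.31% (3.08%, 2.31%). The CTCF motif was at 7 members, or 0.491% (0.238 to 1.01), against 0.0701% 1 kb away. Over all regions with NANOG in both arms it was at 0.202% (0.165 to 0.249), and this interval overlapped that of the members.

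Marks at members with an AP-1 match could not be told from those at the rest at these numbers. H3K27ac was in NanogWT only at 13 of the 86 (15.1%, 9.05 to 24.2) and at 20.4% (18.4 to 22.7) of members without a match. The median log2 FLAG ratio was -0.13 over the 86 and -0.19 over the rest. Of the 3 printed above, the region at chr17:48824893-48825930, outside protein-coding genes, had FLAG at 17 and 9 tags, BRG1 at 14, and H3K27ac at 14 and H3K4me1 at 19 in NanogWT only.

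At chr11:52079416-52082973, in an intron of Cdkl3, FLAG was 29 and 18, BRG1 24, H3K27ac 32 and 24, and H3K4me1 24 in NanogWT only. The region with both an AP-1 and a TEAD match, in an intron of Ttc27 (chr17:74795840-74796826), had FLAG at 17 and 10, BRG1 at 9, H3K27ac at 15 and 14, and H3K4me1 at 15 and 9. Both octamer regions had lower FLAG in NanogBiD, with 27 and 13 tags at chr9:52767283-52768906 and 30 and 13 at chr7:136158949-136160785. H3K27ac was 13 in NanogWT only at the first, and 19 and 12 at the second. Over all 12 members with an octamer the median log2 FLAG ratio was -0.21, against -0.18 over the rest, so these regions do not stand for the 12.

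By gene, the members were spread thinly. A member lay in the body or within 20 kb of 1493 of 21755 protein-coding genes (6.86%), 97 genes had 2 or more, and 14 had 3 or more. The glutamate receptor subunit gene Grik4 and the matrix gene Thsd4 had 4 each, beside 15 and 9 regions with BRG1 in both arms. Those with 3 included Sae1, a subunit of the SUMO-activating enzyme, Arid1b, Glis3, Tmcc3, Atrnl1, Etl4 and Astn2. Lrmda, Rbms3, Dlg2 and Cntnap2 also had 3 each. These genes ranged in length from 67.6 kb (Sae1) to 2245 kb (Cntnap2). The 6 members of Gm20388 lay in a gene model of 4435 kb that spans many other genes, and 341 members lay near no protein-coding gene.

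Of 30 fibroblast and mesenchymal genes, 6 had a member, where 6.86% of all protein-coding genes did, with 8 members beside 59 regions with BRG1 in both arms. In the gene of Tgfbi, a matrix protein induced by TGF-beta, the member at chr13:56634883-56635753 had FLAG at 13 and 11 tags, BRG1 at 9, H3K27ac at 18 in NanogWT only and H3K4me1 at 22 and 12. The other Tgfbi member, at chr13:56621262-56621994, had FLAG at 11 and 12, no H3K27ac, and H3K4me1 at 15 in NanogBiD only. A member that overlapped the start of the collagen gene Col6a2 had FLAG at 12 and 8, and H3K27ac at 12 and 15. In Col5a1, another collagen, FLAG was 12 and 20 with H3K27ac at 17 in both arms. S100a4, a marker of fibroblasts, had FLAG at 13 and 9 with H3K27ac at 17 and 15. The member in the flank of Fn1 (fibronectin) had neither mark. In the flanks of Pdgfra, a growth factor receptor, H3K27ac was 13 in NanogBiD only at chr5:75142917-75143724 (FLAG at 11 and 12) and not called at chr5:75209985-75211002 (FLAG at 15 and 10).

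Of 26 TGF-beta and BMP genes, 4 had a member, again beside 6.86% of all protein-coding genes. In Tgfbr3, which encodes the co-receptor betaglycan, the member at chr5:107122009-107123373 had FLAG at 28 and 17 tags, BRG1 at 16, H3K27ac at 25 in NanogWT only and H3K4me1 at 20 and 15. The second Tgfbr3 member, at chr5:107199749-107201499, had FLAG at 21 and 19, H3K27ac at 21 and 15, and H3K4me1 at 18 in NanogWT only. In the flank of Tgfb1, the ligand, the member at chr7:25681918-25683584 had FLAG at 17 and 20, BRG1 at 15, and H3K27ac at 20 and H3K4me1 at 21 in NanogWT only. Near Id1, a target of BMP signalling, H3K27ac was 16 and 12, and near Smad5, a BMP signal transducer, 19 and 16. H3K27ac was thus in NanogWT only at 2 of the 5 members of this list, and lower in NanogBiD at the other 3, beside 20.1% of all members with H3K27ac in NanogWT only and 52.8% lower in NanogBiD among those with it in both arms. With 5 members, nothing is read from these counts.

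Counts in the other lists were small, and are set beside the 6.86% of all protein-coding genes with a member. The shares were 6.25% for AP-1, TEAD and epithelial genes, 16.7% for RUNX genes and 12.5% for contractile genes. AP-1 and related factors had 1 gene of 16 (Batf, with 2 members, FLAG at 12 and 11 and at 10 and 9), TEAD and Hippo genes 1 of 16 (Tead1, FLAG at 13 and 14), RUNX genes 1 of 6 (Runx1, FLAG at 10 and 13), epithelial genes 1 of 16 (Cdh1, which encodes E-cadherin, FLAG at 9 and 11) and contractile genes 2 of 16 (Flna, filamin A, FLAG at 12 and 16, and Myh9, non-muscle myosin, FLAG at 12 and 8). H3K27ac at the Myh9 member was 28 and 17. No gene of 24 in the pluripotency list had a member, where 6.86% of all protein-coding genes did. Of the 24, 10 had NanogWT BRG1 at a region with NANOG in both arms and so could hold a member. With numbers this small, nothing is read from the absence.

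BAF subunit genes had a member at 2 of 26, or 7.69%, beside 6.86% of all protein-coding genes. The 3 in Arid1b had FLAG at 16 and 15, 16 and 10, and 19 and 14 tags, with H3K27ac in both arms at each. The member in Smarcc1 had FLAG at 10 and 16, no H3K27ac, and H3K4me1 at 19 in NanogWT only. Over the lists, members as a share of members and regions with BRG1 in both arms ranged from 0% (pluripotency) to 11.9% (fibroblast and mesenchymal), beside 6.07% over all regions with NANOG in both arms and BRG1 in NanogWT, and with these counts nothing can be called particular to a list.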

How the data were processed

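Per the study's methods and the submitters' processing notes, the authors trimmed reads (Trim Galore 0.6.4), aligned them to mm10 (Bowtie2 2.4.5), filtered them (SAMtools 1.16.1), merged replicates and called peaks (MACS 1.4.2). The deposited peak lists give each peak a score (significance, at least 50), and the deposited summit lists give a signal, the tag pileup at the summit, called height. Neither was scaled by the authors to depth, which is unknown.

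Peaks of the FLAG and BRG1 lists (4 in all) were merged at 1 bp of overlap or contact, and a mark was present where its peak overlapped a region by 1 bp. The highest summit per list gave the height, and arms were compared as log2 of NanogBiD over NanogWT. Promoters were 2 kb either side of a GENCODE start site, and genes were assigned within 20 kb. Motifs were searched within 50 bp of the NanogWT FLAG summit. Scripts used Python 3.11.15, pandas 2.3.3, SciPy 1.17.1 and pysam 0.24.0, and the merging was tested on simulated sites. The members, gene lists and motifs were chosen with earlier results of these data known.

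Named regions were the 10 with the highest NanogWT BRG1 score, the 5 with the highest H3K27ac score in NanogWT only and in NanogBiD only, and the 3 largest rises and falls in FLAG height from 15 tags. Named genes held 3 or more members, or belonged to a list and held a member. Alternatives were other thresholds, peak extents, merging distances, promoter widths and motif windows. Promoter and distal members taken apart, comparisons at like height and at like FLAG change, and the printed regions with AP-1 or octamer matches were added after the data were seen. No test across libraries was made. Of the 4 regions that the AP-1 choice gave, 1 is not reported here, for reasons unrelated to its values, so no direction is read from the 3 printed.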

Additional observations from a re-analysis of the deposited data

How the results depend on the processing

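The peak threshold decided which regions were members. The count of 1427 was 661 with a score of at least 100 in every list (69 of the 1427 members overlapped), 393 with each list limited to its 20000 top-scoring peaks (7 overlapped) and 807 with summits of at least 15 tags (58 overlapped). Their share among regions with NANOG in both arms and NanogWT BRG1 was 5.23%, 4.37% and 8.70% in these, 10.7% with windows of 100 bp either side of summits, and 5.68% with no NanogBiD BRG1 peak within 1 kb. H3K27ac in NanogWT only was at 16.3% (20000 peaks), 17.6% (summit windows), 10.5% (15 tags), 22.8% (distal) and 13.6% (promoter). H3K27ac in NanogBiD only was at 5.60% (score of 100), 6.87% (20000 peaks), 16.7% (summit windows) and 4.34% (15 tags). H3K4me1 in NanogWT only was at 12.7% (20000 peaks), 19.4% (summit windows) and 19.1% (promoter), and in NanogBiD only at 8.91% and 12.2% under the first 2. The NanogWT-only share exceeded the NanogBiD-only share for both marks in each of these settings, but the intervals overlapped for H3K27ac with summit windows and at promoters, and for H3K4me1 with 20000 peaks. The promoter share was 44.5% (score of 100), 40.0% (summit windows), 56.4% (15 tags), 25.4% (promoters of 1 kb) and 24.2% (protein-coding genes only). The median log2 FLAG ratio was -0.082 (20000 peaks), -0.060 (summit windows), -0.093 (15 tags), -0.48 (scores in place of heights), -0.25 (distal) and 0 (promoter). The AP-1 share was 3.64% with motif windows of 25 bp and 4.34% at the BRG1 summit. The cause of these differences was not tested, and the other 34 values moved by less than their interval or, for counts, by less than 1.5-fold. No paired analysis was possible because the 8 libraries belong to 8 different groups.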
